A study of Mus musculus with 22 samples.

Results

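Narrow chromatin regions that carried peaks of H3K9ac, H3K9cr and H3K18la at both stages of the embryonic mouse telencephalon, but had no ATAC-seq peak at E13.5, numbered 3859. They were found by merging all peaks of the 12 histone lists on chromosomes 1 to 19 and X where they overlapped by at least 1 bp. Of 112550 merged regions, 18161 held a peak from all 12 lists. The 3859 were chosen by measured values from these, namely a merged width below 5000 bp and no overlap with a peak of either E13.5 ATAC-seq list, and made up 21.2% of the 18161 and 3.43% of all merged regions. A further 12793 were as narrow but overlapped an ATAC-seq peak, and 1509 were 5000 bp or wider. Because peaks of all 3 marks at both stages were required, the presence of the marks is no result here. The position of the regions and the RNA of nearby genes were not used in the choice. Mark strength and its change with stage were not used as values either, but the need for a called peak in every list limits both. It sets a floor to strength and leaves out regions whose mark was not called at a stage.

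The samples came from the telencephalon, the front part of the brain that forms the cerebral cortex and basal ganglia, of ICR mouse embryos at embryonic day 13.5 (E13.5) or 16.5 (E16.5), with no genotype or treatment named for any group. Native ChIP-seq, in which chromatin is not crosslinked, gave 2 libraries per mark and stage. ATAC-seq, which cuts accessible DNA with a transposase, gave 2 libraries at E13.5, and polyadenylated RNA gave 2 libraries per stage. The libraries of a group are stated to be biological replicates, with no number of embryos given. The histone lists held 28960 to 76031 peaks on the chromosomes used and the ATAC lists 26442 and 28230. Accessibility was thus measured at the earlier stage only, and the absence of a peak means that neither list called one, not that the DNA was closed.

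Acetylation of histone H3 at lysine 9 neutralises a positive charge of the histone tail and is a classical mark of active promoters and enhancers. Crotonylation of the same lysine and lactylation of lysine 18 are acylations that draw on crotonyl-CoA and on lactate metabolism, and the same acyltransferases can add several of them. Active promoters and enhancers usually carry such marks on nucleosomes that flank a stretch of accessible, nucleosome-poor DNA, which is what ATAC-seq detects.

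The promoters shown here belong to 6 genes whose start lay in such a region and whose RNA or marks changed most with stage. They are printed because they lie inside the marked regions, with the CG dinucleotides, the sites of DNA methylation, in capitals. Each stretch ends just before the transcribed part begins, runs 5′ to 3′ along the gene's strand and comes from RefSeq promoters of GRCm38.p6. Knl1 (chr2:119046869-119047118, plus strand), Igf2bp2 (chr16:22163300-22163549, minus strand) and Tead2 (chr7:45215542-45215791, plus strand) lost RNA and both H3K9 marks between the stages. Frmd4a (chr2:4017433-4017649, plus strand) and Matk (chr10:81252685-81252934, plus strand) gained both H3K9 marks, and Stum (chr1:180483520-180483754, minus strand) had the largest RNA rise among the named genes.
Knl1: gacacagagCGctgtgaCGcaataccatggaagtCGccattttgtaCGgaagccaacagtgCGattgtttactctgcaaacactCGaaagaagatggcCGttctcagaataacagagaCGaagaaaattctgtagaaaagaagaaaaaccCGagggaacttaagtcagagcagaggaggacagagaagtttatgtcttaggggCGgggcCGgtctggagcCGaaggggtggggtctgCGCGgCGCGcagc
Igf2bp2: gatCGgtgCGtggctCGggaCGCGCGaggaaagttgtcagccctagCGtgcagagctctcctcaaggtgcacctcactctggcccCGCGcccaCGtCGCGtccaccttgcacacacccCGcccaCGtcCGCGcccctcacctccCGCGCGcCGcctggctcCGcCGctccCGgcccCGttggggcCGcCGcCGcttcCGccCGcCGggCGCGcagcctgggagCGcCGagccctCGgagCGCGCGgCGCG
Tead2: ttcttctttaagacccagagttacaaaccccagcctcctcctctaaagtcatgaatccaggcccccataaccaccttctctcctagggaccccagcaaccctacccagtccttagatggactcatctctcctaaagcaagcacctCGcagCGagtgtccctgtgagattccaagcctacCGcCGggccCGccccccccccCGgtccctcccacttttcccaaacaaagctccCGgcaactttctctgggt
Frmd4a: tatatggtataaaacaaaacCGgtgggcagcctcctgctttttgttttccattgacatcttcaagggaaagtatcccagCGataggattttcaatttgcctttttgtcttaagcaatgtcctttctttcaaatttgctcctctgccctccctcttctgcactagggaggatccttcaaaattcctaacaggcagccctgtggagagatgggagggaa
Matk: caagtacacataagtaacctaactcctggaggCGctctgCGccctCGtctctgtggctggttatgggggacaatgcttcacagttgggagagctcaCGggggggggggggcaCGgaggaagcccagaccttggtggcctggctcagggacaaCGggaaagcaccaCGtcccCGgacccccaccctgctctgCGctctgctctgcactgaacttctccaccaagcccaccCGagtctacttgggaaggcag
Stum: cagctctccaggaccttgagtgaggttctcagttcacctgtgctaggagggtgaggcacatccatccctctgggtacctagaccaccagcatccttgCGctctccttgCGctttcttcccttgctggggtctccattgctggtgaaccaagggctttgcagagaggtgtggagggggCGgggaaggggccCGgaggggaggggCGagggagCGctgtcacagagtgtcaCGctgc
The Igf2bp2 stretch is dense in CG, with 40 in 250 bases, and Knl1 has 16. Matk has 10, Tead2 and Stum 7 each, and Frmd4a 2 in 217 bases. The only TATAAA among the 6 stretches, on either strand, is in Frmd4a, and none of the 6 holds CCAAT on either strand.

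A typical region of this kind was weakly marked, and the limit of 5000 bp kept it small. A wider region is also likelier to overlap an ATAC-seq peak, so the choice can affect widths in both classes. The median width was 2006 bp, with quartiles of 1512 and 2738 bp and a range from 406 to 4998 bp, against a median of 2365 bp in narrow regions with an ATAC-seq peak. Just inside the width limit lay the Sez6l start at chr5:112574170-112579167, 4998 bp wide, and an intergenic region at chr11:24738879-24743853, 4975 bp wide. Just outside lay regions of 5004 bp in Specc1 and 5007 bp between genes, whose mean log2 fold enrichments of 2.4 and 2.8 were below the 4.95 and 4.24 of the former pair. The nearest ATAC-seq peak was a median of 14880 bp away. Of the 3859 regions, 137 (3.55%) had one within 1000 bp and 1479 (38.3%) within 10000 bp, and the closest lay 2 bp away. Among the narrow regions counted as having an ATAC-seq peak, 2997 (23.4%) met a peak of only 1 of the 2 ATAC lists, so the border between both kinds of region depends on which list is counted. If only ATAC-seq peaks present in both lists had counted, 7061 regions would have been chosen.

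Most of the regions lay away from gene starts. A start of a protein-coding gene lay within 2000 bp of 1011 regions (26.2%), 1470 (38.1%) lay in gene bodies and 1378 (35.7%) between genes. The share at a start ranged from 19.7% to 37.1% under other windows and annotations. Narrow regions with an ATAC-seq peak had the opposite make-up, with 62.1% at gene starts, 18.6% in gene bodies and 19.3% between genes. Of the wide regions, 47.4% were at gene starts. Strand was known for 17273 protein-coding genes, and for the other 4354 both gene ends counted as starts. With genes of known strand alone the shares at a start were 19.7% without and 51.1% with an ATAC-seq peak. Along the genome, between 13.4% (chromosome 16) and 27.4% (chromosome 11) of the three-mark regions of a chromosome were narrow and without an ATAC-seq peak.

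**Figure D1:**
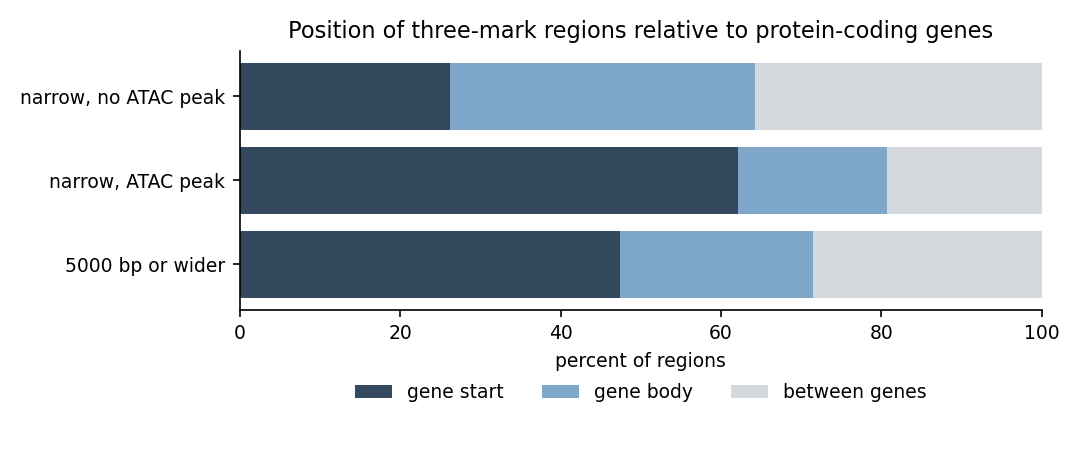
Percent of regions (horizontal axis) at a protein-coding gene start, in a gene body or between genes, for 3859 narrow three-mark regions without an ATAC-seq peak, 12793 narrow regions with one and 1509 regions of 5000 bp or more. The dark part, gene starts, is 26.2% in the first bar and 62.1% in the second.

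Among regions overlapping a promoter of the RefSeq table (250 bases before to 50 after a start), those without an ATAC-seq peak covered promoters with fewer CG dinucleotides. The 748 promoters at regions without an ATAC-seq peak had a median of 18 CG in 300 bases, against 22 at the 8150 promoters of narrow regions with one and 5 at the 11368 promoters in no three-mark region. Scaled to base composition, the median observed over expected CG ratio was 0.67, 0.797 and 0.273 in the same order. A ratio of at least 0.6, a usual sign of a CpG island, was reached by 59.1%, 79.6% and 23.4%. Short motifs were searched on both strands of the same 300 bases. CCAAT was in 23.9% of promoters at regions without an ATAC-seq peak, against 38.8% with one and 38.5% of all 21044 promoters. TATAAA was in 6.28%, 5.66% and 12.7%, and GGGCGG, which contains a CG, in 61.9%, 68.7% and 46.7%. These are letter matches and say nothing of what binds there.

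Fold enrichment, the signal at a peak's summit over the caller's local background, was used as mark strength, taking the strongest peak of each library in a region. For H3K9ac the median over the 3859 regions was 8.99 and 8.26 in the 2 E13.5 libraries and 13.0 and 12.5 at E16.5, while narrow regions with an ATAC-seq peak had 31.3, 28.1, 38.2 and 34.8. H3K9cr medians were 9.74, 8.73, 12.3 and 11.7 without and 44.1, 38.5, 42.4 and 40.1 with an ATAC-seq peak. H3K18la medians were 6.82, 7.38, 6.77 and 7.46 without and 8.32, 9.14, 8.16 and 8.99 with. The regions without an ATAC-seq peak had the lower median in 12 of 12 libraries, by a mean of 1.3 on the log2 scale (exact two-sided sign-flip permutation test over the 12 libraries, p = 0.000488, the smallest it can give). For the H3K9 marks the ratio of the medians was 0.286, and for H3K18la it was 0.822. The gap was smaller for H3K18la than for the H3K9 marks (difference 1.52 on the log2 scale, exact two-sided permutation of mark labels over 495 arrangements, p = 0.00202, the smallest it can give). That contrast of marks was picked after the values had been seen. H3K18la also varied less between regions. In narrow regions with an ATAC-seq peak its quartiles lay 0.979 to 1.04 apart on the log2 scale, against 1.67 to 2.35 for the H3K9 marks. The part of this smaller spread in the contrast was not tested.

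**Figure D2:**
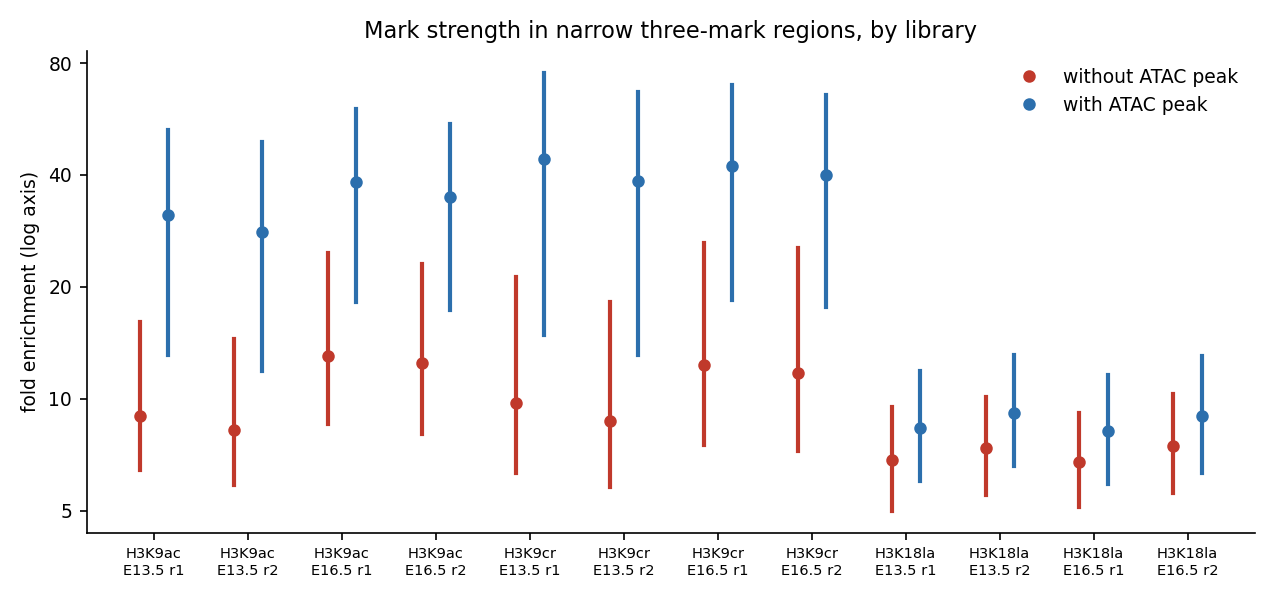
Median fold enrichment (points, log axis) and quartiles (lines) of the strongest peak per region in each of 12 histone libraries, for narrow three-mark regions without (red) and with (blue) an ATAC-seq peak; r1 and r2 are the replicates. The red median lies below the blue one in every library, far below for H3K9ac and H3K9cr and narrowly for H3K18la.

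For the H3K9 marks the gap was smaller between regions of like position, while for H3K18la it was not. At gene starts, regions without an ATAC-seq peak had H3K9cr medians of 32.6 and 27.9 at E13.5 and H3K9ac medians of 23.4 and 20.4, several times those of gene bodies (7.56 and 6.81 for H3K9cr, 7.69 and 7.1 for H3K9ac). H3K18la medians at E13.5 were alike at the 3 positions, with 6.03 and 6.89 at gene starts, 6.97 and 7.51 in gene bodies and 7.15 and 7.59 between genes. Compared within gene starts, the H3K9 ratio to regions with an ATAC-seq peak was 0.557. Within gene bodies it was 0.689 and between genes 0.682. The H3K18la ratios were 0.806, 0.765 and 0.784, each below the 0.822 over all positions. At each position the regions without an ATAC-seq peak had the lower median in 12 of 12 libraries, with a mean difference of -0.67, -0.49 and -0.49 on the log2 scale (exact sign-flip permutation test, p = 0.000488 for each). Per library the regions without an ATAC-seq peak spanned a wide range, for example H3K9cr fold enrichments from 2.69 to 208 in the first E13.5 library.

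The summits of both H3K9 marks lay close together. Their median distance within these regions was 49 and 67 bp at E13.5 and 41 and 42 bp at E16.5, similar to the 36 to 58 bp between replicates of a single H3K9 mark. The H3K18la summit was a median of 121 to 170 bp from the H3K9 summits, against 75 bp between H3K18la replicates at either stage. Narrow regions with an ATAC-seq peak showed the same order, with 27 to 41 bp between the H3K9 marks and 111 to 154 bp to H3K18la.

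Averaged over all libraries, the 5 strongest regions without an ATAC-seq peak included 3 starts of protein-coding genes and 1 of a noncoding gene. The region at chr10:80383210-80387289, 362 bp from the start of Mex3d, an RNA-binding protein gene, reached H3K9cr fold enrichments of 194 and 162 at E13.5 against 296 and 192 at E16.5. H3K18la there was 37.8, 33.1, 39.1 and 30.9. The start of Klhl7, a ubiquitin ligase adaptor (chr5:24099883-24103485), had H3K9ac of 112 and 136 at E13.5 against 129 and 127 at E16.5. The Bicra start (chr7:16045485-16048054), which encodes a subunit of a BAF chromatin remodelling complex, had H3K9cr of 208 and 189, then 214 and 189. A region on the X chromosome (chrX:103492266-103495499) held the start of Jpx, a noncoding RNA gene that acts on Xist, with H3K9cr of 141 and 119, then 142 and 169. The fifth (chr10:91186959-91188683) lay 5207 bp from Tmpo and 4791 bp from a tRNA gene, and its H3K18la of 44.5, 29.7, 43.0 and 46.7 was as high as that at Mex3d. None of the 5 passed the test for a stage change in any mark.

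The regions held 14 of the 1005 miRNA hairpins of the RefSeq table, while 83 lay in narrow regions with an ATAC-seq peak and 33 in wide ones. Mir181a-1 and Mir181b-1 lie in 1 region, chr1:137965790-137967425, and their 5p arms share a seed. Mir34b lies in chr9:51103196-51104195 and Mir203 in chr12:112129453-112131413. Each of these 4 hairpins has 2 mature arms in the table. They are shown because they belong to well-known families, and of each the arm with the seed usually cited for the family is printed 5′ to 3′ with the seed, bases 2 to 8, in capitals.
mmu-miR-181a-5p: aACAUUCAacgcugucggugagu
mmu-miR-181b-5p: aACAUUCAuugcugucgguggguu
mmu-miR-34b-5p: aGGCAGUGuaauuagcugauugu
mmu-miR-203-3p: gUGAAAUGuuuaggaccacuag
miR-181 is known from neuronal and lymphoid cells, the miR-34 family from multiciliated cells and as a p53 target, and miR-203 from skin. The miR-181 region was weakly marked at both stages, with H3K9ac of 5.95 and 6.66, then 8.63 and 8.47, and H3K9cr between 4.08 and 5.56. The Mir34b region had H3K9ac of 13.6 and 11.2 at E13.5 against 26.9 and 24.8 at E16.5, but its centred log2 change of 0.56 did not pass the test (limma adjusted p 0.104), and H3K18la was between 3.33 and 5.74. The Mir203 region had H3K9ac of 17.0 and 18.2, then 25.2 and 28.9, a centred change of 0.12 (limma adjusted p 0.748), while H3K18la rose from 5.47 and 5.74 to 11.7 and 10.1 (change 1.01, limma adjusted p 0.0435). These sentences compare levels within 1 mark, and miRNA levels were not measured.

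The stage comparison asked how the marks at these regions differed between E13.5 and E16.5. In raw fold enrichment the E16.5 median over the E13.5 median was 1.48 for H3K9ac, 1.3 for H3K9cr and 1.0 for H3K18la, while narrow regions with an ATAC-seq peak had ratios of 1.23, 1.0 and 0.982. Whether a whole library is stronger because of the tissue or of the precipitation cannot be told apart in peak lists, so libraries were centred on their median over all regions with a peak of that mark in all 4 libraries before testing. A constant shift of a library, as in centring, leaves the difference between region classes within it unchanged, but quantile normalization can alter it. For H3K9ac the median changes without and with an ATAC-seq peak were -0.04 and -0.23 after centring. After quantile normalization they were 0.05 and -0.01, and for H3K9cr the classes also lay closer. The gap that follows was taken without quantile normalization. The gap between regions without and with an ATAC-seq peak was smaller at E16.5 than at E13.5 by 0.27 for H3K9ac, 0.38 for H3K9cr and 0.03 for H3K18la on the log2 scale, with no overlap between stages in any mark. Its mean of 0.23 had p = 0.00926, the smallest possible in an exact two-sided permutation of stages within marks (216 arrangements), a test picked after the values had been seen. ATAC-seq peaks of E13.5 alone split the classes, so a gap wider at that stage cannot be told apart from the way they were chosen. The same holds for the p-values by position. At gene starts the gap narrowed by the same mean of 0.23 (exact permutation p = 0.00926), in gene bodies by 0.05 (exact permutation p = 0.0185), and between genes the mean difference was 0.0 (exact permutation p = 0.954). That mean joined marks of opposite sign: between genes the H3K9cr gap was wider at E16.5 (-0.07) and the H3K18la gap narrower (0.08).

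Region by region, limma with Benjamini-Hochberg adjustment called H3K9ac higher at E16.5 in 180 of the 3859 regions (4.66%; 3.79% of all 26713 fitted regions) and lower in 279 (7.23%; 11.9% of all). H3K9cr was higher in 278 (7.2%; 5.75% of 23897) and lower in 179 (4.64%; 11.6%). H3K18la was higher in 122 (3.16%; 2.66% of 33191) and lower in 61 (1.58%; 1.53%). The share of H3K9 losses was smaller than among all fitted regions, also without centring and after quantile normalization, and the H3K18la shares were near those of all. The split between higher and lower moved with the scaling: without centring H3K9ac had 934 higher and 29 lower, H3K9cr 485 and 58, and H3K18la 70 and 59, and after quantile normalization the counts were 147 and 79, 236 and 74, and 94 and 65. Calls that held under all 3 scalings numbered 123 higher and 29 lower for H3K9ac, 199 and 49 for H3K9cr, and 70 and 56 for H3K18la. With 2 libraries a stage, leaving out 1 leaves a single library in that stage, and the H3K9 counts then fell whichever was left out. A fit with fewer libraries also calls less, so the fall does not show that the counts rested on a particular library. Without E13.5 replicate 2 of H3K9ac, limma called 0 regions (412 higher and 442 lower at an unadjusted p under 0.05), and without either E13.5 replicate of H3K9cr it also called 0 (516 and 313, or 491 and 266, unadjusted). H3K9ac counts were 38 higher and 41 lower without E13.5 replicate 1, 54 and 146 without E16.5 replicate 1, and 26 and 61 without E16.5 replicate 2. H3K9cr counts were 119 and 134 without E16.5 replicate 1 and 103 and 99 without E16.5 replicate 2, and H3K18la losses numbered 94 without E16.5 replicate 1.

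Losses of H3K9 marks were called more often at gene starts than between genes. Of 1011 regions at gene starts, H3K9ac was lower in 152 (15%) and higher in 51 (5.04%), and H3K9cr lower in 121 (12%) and higher in 80 (7.91%). Of 1378 regions between genes, H3K9ac was lower in 42 (3.05%) and higher in 69 (5.01%), and H3K9cr lower in 21 (1.52%) and higher in 94 (6.82%). The excess of losses at gene starts turned with the scaling: there H3K9ac was higher in 245 and lower in 15 without centring and higher in 54 and lower in 32 after quantile normalization, and H3K9cr was higher in 129 and 96 and lower in 40 and 40. The larger share of losses at gene starts than between genes remained, at 1.48% against 0.0726% for H3K9ac and 3.96% against 0.581% for H3K9cr without centring. Regions between genes were weaker at E13.5, with H3K9ac medians of 7.94 and 7.19 against 23.4 and 20.4 at gene starts. A peak was required at both stages, which leaves weak regions less room for a loss. The part of this in the contrast was not tested, and shares by position are not given for other regions. H3K18la was higher in 30 and lower in 15 at gene starts, 41 and 31 in gene bodies, and 51 and 15 between genes, though without centring it was higher in 27 and lower in 30 in gene bodies. In all, 772 regions were called in at least 1 mark, 36 were higher in all 3 marks and 14 lower in all 3. Only 1 was higher in a mark and lower in another. The 103 regions higher in both H3K9 marks were 57.2% of those higher in H3K9ac and 37.1% of those higher in H3K9cr, and the 110 lower in both were 39.4% and 61.5% of the lower ones.

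**Figure D3:**
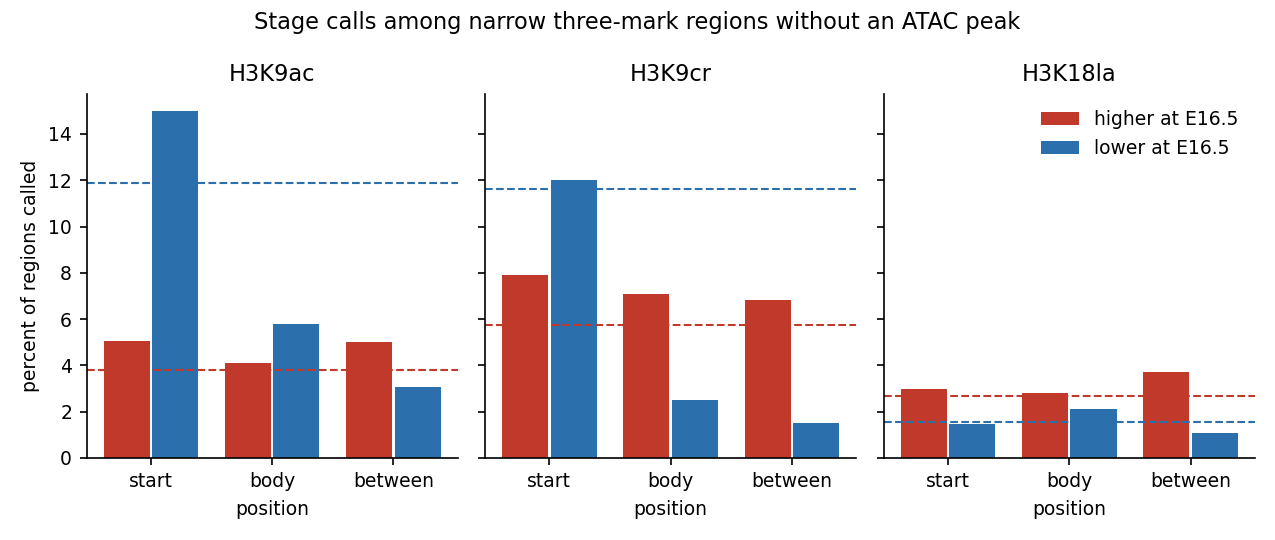
Percent of narrow three-mark regions without an ATAC-seq peak that limma called higher (red bars) or lower (blue bars) at E16.5 at an adjusted p under 0.05, by mark and position in centred values; dashed lines give the same shares over all fitted regions. Lower H3K9ac reaches 15% at gene starts, where other scalings give more gains than losses, and 3.05% between genes.

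Among the regions with the largest losses were the starts of Knl1, E2f1, Tead2, Ptpn21 and Nxn. Of these genes, E2f1 and Ptpn21 also had a start at a narrow region with an ATAC-seq peak. At the start of Knl1 (chr2:119046170-119048706), a kinetochore scaffold gene, H3K9ac was 47.2 and 43.7 at E13.5 against 16.3 and 16.4 at E16.5, and H3K9cr 52.6 and 59.1, then 19.5 and 20.6. The centred log2 changes were -1.98 and -1.67 (limma adjusted p 0.013 and 0.0135), and the stages did not overlap. At E2f1 (chr2:154567581-154569685), a transcription factor gene of the G1 to S transition, all 3 marks were lower: H3K9ac 30.8 and 25.7 against 14.6 and 8.11, H3K9cr 32.8 and 21.9 against 13.6 and 14.4, and H3K18la 13.7 and 12.6 against 3.84 and 4.66. Their changes were -1.87, -1.13 and -1.58 (limma adjusted p 0.013, 0.0205 and 0.0057). At Tead2 (chr7:45215211-45218447), a transcription factor gene of the Hippo pathway, H3K9cr went from 108 and 81.1 to 38.1 and 42.0, a change of -1.42 (limma adjusted p 0.0135). The starts of Ptpn21, a tyrosine phosphatase gene, and Nxn, a thioredoxin-like redox gene, were lower in H3K9cr by -1.5 and -1.61 (limma adjusted p 0.0135 for each). Inside Nxn, 12735 bp from its start, a separate region (chr11:76382274-76386406) had the largest H3K9ac loss, from 8.46 and 7.73 to 2.79 and 2.59 (change -2.09, limma adjusted p 0.013). A region in the body of Ptprg, a receptor phosphatase gene, 3569 bp from its start (chr14:12183041-12186374), had the largest H3K18la loss, from 26.0 and 23.9 to 7.28 and 7.3 (change -1.72, limma adjusted p 0.00269), and both H3K9 marks were lower there too.

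Of the 5 largest H3K9ac gains, 3 lay at gene starts (Frmd4a, Tmem63c and Chrm1) and the others between genes. Chrm1 also had a start at a narrow region with an ATAC-seq peak. The start of Chrm1, a muscarinic acetylcholine receptor gene (chr19:8663543-8666533), had H3K9ac of 4.95 and 5.05 at E13.5 against 29.5 and 19.4 at E16.5, and H3K9cr of 5.04 and 6.22, then 23.8 and 27.0. The changes were 1.75 and 1.98 (limma adjusted p 0.0133 and 0.0135). At Frmd4a, a scaffold gene of cell polarity (chr2:4017030-4019532), H3K9ac went from 4.36 and 3.2 to 23.0 and 20 and H3K9cr from 3.83 and 4.65 to 21.9 and 21.5 (changes 2.02 and 2.17, limma adjusted p 0.013 and 0.0135). H3K18la at Frmd4a was 4.79 and 5.15, then 4.7 and 4.59 (change -0.04, limma adjusted p 0.955). The gain at Frmd4a was thus called in the H3K9 marks and not in H3K18la, a difference between marks that was not tested. The largest gain of all lay between genes at chr5:110022716-110024362, 10450 bp from Zfp932, where H3K9ac went from 7.69 and 5.84 to 60.3 and 57.6 and H3K18la from 3.95 and 4.92 to 10.5 and 12.4 (changes 2.64 and 1.43, limma adjusted p 0.013 and 0.00987). A region at chr5:134785557-134786819, 38189 bp from Eln, gained H3K9ac from 5.04 and 3.46 to 34.8 and 29.4 and H3K18la from 3.06 and 4.77 to 12.9 and 16.1. An intergenic region at the start of the noncoding gene Gm31656, 30901 bp from Adra2c (chr5:35312664-35315319), gained H3K18la from 5.27 and 6.2 to 19.6 and 22.8 (change 1.94, limma adjusted p 0.00194). A region with H3K18la alone changed lay 118559 bp from Dynlrb2 (chr8:116382125-116386456), where H3K18la went from 16.4 and 15.9 to 6.3 and 5.79 (change -1.36, limma adjusted p 0.00996), while H3K9ac stood at 12 and 11.2, then 17.4 and 16.9 (change 0.06, limma adjusted p 0.869).

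RNA was compared for genes with a start at one of these regions. The tissue label was met by its markers: Tbr1, a transcription factor gene of cortical projection neurons, had 407 and 389 CPM (counts scaled to library size) at E13.5 against 221 and 227 at E16.5, and Emx1, a homeobox gene of the dorsal telencephalon, had 96.0 and 73.8, then 34.4 and 29.6, while the more posterior genes En2 and Hoxb4 had too few counts to be tested. RNA libraries held 17059544 to 18485855 counts. In these whole-tissue samples, fewer cells of a type and less RNA per cell cannot be told apart. Marker RNA of other cell types moved with stage: the summed CPM of 10 endothelial genes was 147 and 159 at E13.5 against 504 and 512 at E16.5, that of 13 microglial genes 59.8 and 58.2, then 129 and 130, and that of 8 tested erythroid genes 1600 and 1500, then 2620 and 3550. Radial glia genes summed to 3640 and 3730, then 2760 and 2520. No gene of the endothelial, microglial, erythroid or radial glia lists had its start at one of these regions, and the part of these cells in the results was not tested.

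Of 1070 protein-coding genes with a start at such a region, 933 had enough counts to be tested (87.2%, against 93.5% at narrow regions with an ATAC-seq peak and 33.4% of genes at no three-mark region). By edgeR with Benjamini-Hochberg adjustment, 375 rose (40.2%; 28.4% of all 16237 tested genes) and 244 fell (26.2%; 29.2% of all). Their median log2 change was 0.16, against 0.01 over all genes. Genes at narrow regions with an ATAC-seq peak went the other way, with 25.2% risen, 38% fallen and a median of -0.1, and genes at no three-mark region had 37.9%, 20.7% and 0.29. ATAC-seq peaks of E13.5 alone split the narrow regions. A difference in RNA change between both classes thus cannot be told apart from the way they were chosen. For the 829 genes with no other three-mark region at a start, 41.9% of those tested rose and 23.1% fell. With upper-quartile scaling the medians were 0.25 at regions without an ATAC-seq peak, 0.1 over all genes and -0.01 at regions with one.

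RNA calls and mark calls at the same region mostly had the same direction. Of 38 tested genes whose nearest region gained H3K9ac, 33 rose and 1 fell, and the median change was 1.15 (log2). Of 154 whose region lost H3K9ac, 18 rose and 89 fell, and the median was -0.28. For H3K9cr, 53 rose and 2 fell of 68 at gains, and 13 rose and 68 fell of 114 at losses. For H3K18la, 16 rose and 2 fell of 23 at gains, and 2 rose and 10 fell of 16 at losses. Where the mark was not called, 324 rose and 154 fell of 741 tested genes for H3K9ac. The same counts were 309 and 174 of 751 for H3K9cr, and 357 and 232 of 894 for H3K18la. Such counts are not given for regions with an ATAC-seq peak. The exceptions at gains, named after their values were seen, were Sstr3, a somatostatin receptor gene, for both H3K9 marks, Tuba4a for H3K9cr, and Glyctk and Zfp629 for H3K18la. At H3K18la losses Cpt1a, which carries fatty acids into mitochondria, and Thra, a thyroid hormone receptor gene, rose. These counts describe 1 tissue at 2 stages, and genes that share a region are not independent.

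**Figure D4:**
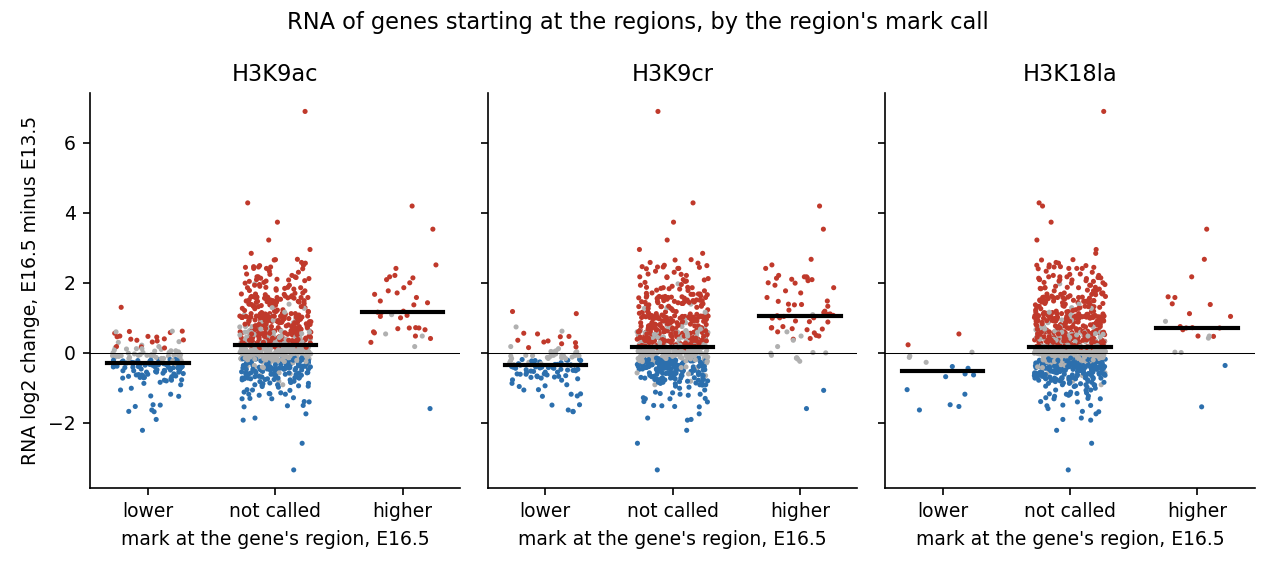
RNA log2 change from E13.5 to E16.5 (vertical axis) of tested genes starting at narrow three-mark regions without an ATAC-seq peak, grouped by whether limma called the mark lower, not changed or higher at the gene's nearest such region. Points are genes, red for risen, blue for fallen and grey for not called by edgeR, and black bars are medians, which for H3K9ac are -0.28, 0.23 and 1.15.

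Of the genes with the 10 largest RNA rises, Matk, Camk2b and Trpm3 had a region that also gained marks. Stum, a membrane protein gene, rose from 2.58 and 2.37 CPM at E13.5 to 31.7 and 34.2 at E16.5 (log2 change 3.73 ± 0.132 SE, edgeR adjusted p = 7.53e-07), while its mark changes of 0.58, 0.78 and 0.55 did not pass the test. Matk, a kinase that phosphorylates Src family kinases, rose from 3.66 and 3.09 to 37.0 and 40.8 CPM (log2 change 3.53 ± 0.132 SE, edgeR adjusted p = 8.79e-07). Its region (chr10:81252205-81253825) gained all 3 marks, H3K9ac from 5.33 and 5.49 to 23.3 and 23.2, H3K9cr from 6.57 and 6.14 to 21.1 and 19.6, and H3K18la from 4.88 and 5.29 to 10.7 and 12.8. Camk2b, a subunit of the synaptic kinase CaMKII, rose from 36.5 and 37.2 to 227 and 242 CPM, and a region 1953 bp from its start gained H3K9cr and H3K18la (changes 0.93 and 1.39, limma adjusted p 0.0468 and 0.0121). Trpm3, a cation channel gene, rose from 6.31 and 9.82 to 43.9 and 42.0 CPM and gained H3K9ac and H3K9cr (changes 1.11 and 1.27). In none of these genes did the libraries of the stages overlap.

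Other rises came without a called mark change. Camkv, a kinase-like vesicle protein gene, rose from 34.1 and 29.4 to 175 and 174 CPM, and Ntsr1, a neurotensin receptor gene of deep cortical neurons, from 7.33 and 8.33 to 41.4 and 42.0. Apoe, the lipid carrier made by glia and microglia, rose from 33.7 and 31.8 to 184 and 170 CPM, with mark changes of 0.38, 0.36 and 0.01. Serpine2, a secreted protease inhibitor gene, rose from 7.57 and 8.44 to 45.3 and 42.2, with changes of -0.13, -0.05 and 0.3. Rasgrp2, a Rap activator gene, and Ccdc141, a gene of neuronal migration, rose by 2.65 and 2.41 on the log2 scale.

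The 10 largest RNA falls included Tead2, Igf2bp2, Tk1, Knl1, E2f2 and Cdca5. Tead2 fell from 238 and 238 to 75.4 and 73.1 CPM (log2 change -1.68 ± 0.0517 SE, edgeR adjusted p = 5.2e-07). Igf2bp2, an RNA-binding protein gene of early progenitors, fell from 122 and 117 to 38 and 36.9 CPM (log2 change -1.67 ± 0.0567 SE, edgeR adjusted p = 5.98e-07). Its region (chr16:22160167-22164353) lost H3K9ac, from 58.8 and 57.0 to 35.8 and 36.0, and H3K9cr, from 88.6 and 80.4 to 44.2 and 46.0, while H3K18la stood at 8.53 and 7.96, then 8.9 and 7.65. Tk1, the thymidine kinase of S phase, fell from 41.0 and 39.0 to 13.9 and 12 CPM and lost all 3 marks (changes -1.25, -0.98 and -1.3, limma adjusted p 0.0143, 0.0195 and 0.0145). Knl1 fell from 49.7 and 50.7 to 18.5 and 17.4 CPM, and E2f1, outside those 10, from 42.3 and 43.7 to 15.9 and 14.9. E2f2, a relative of E2f1, fell from 38.1 and 37.5 to 12.4 and 13.7 and lost H3K9ac and H3K18la (changes -0.86 and -1.01, limma adjusted p 0.049 and 0.0476). Cdca5, which protects sister chromatid cohesion, fell from 27.3 and 28 to 6.87 and 7.9 CPM.

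The same 10 held Nhlh2, Gsx2, Asb4 and Glyctk. Nhlh2, a bHLH factor of young neurons, fell from 41.3 and 37.9 to 11.6 and 9.37 CPM, and its H3K9ac change of -0.78 had a limma adjusted p of 0.0521. Gsx2, a homeobox gene of the ventral telencephalon, fell from 16.1 and 14.2 to 5.31 and 5.34. Asb4, a ubiquitin ligase adaptor gene with a further start at a region with an ATAC-seq peak, fell from 36.6 and 36.6 to 10.1 and 10.1. Glyctk, glycerate kinase, fell from 13.8 and 16.9 to 4.13 and 6.38 CPM although a region 1276 bp from its start gained H3K18la (change 1.0, limma adjusted p 0.0345). Slc29a1, a nucleoside transporter gene, rose from 25.3 and 22.1 to 50.8 and 50.9 CPM while 1 region at its starts lost H3K9ac (change -1.59, limma adjusted p 0.0161) and another gained H3K9cr (change 0.9).

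**Figure D5:**
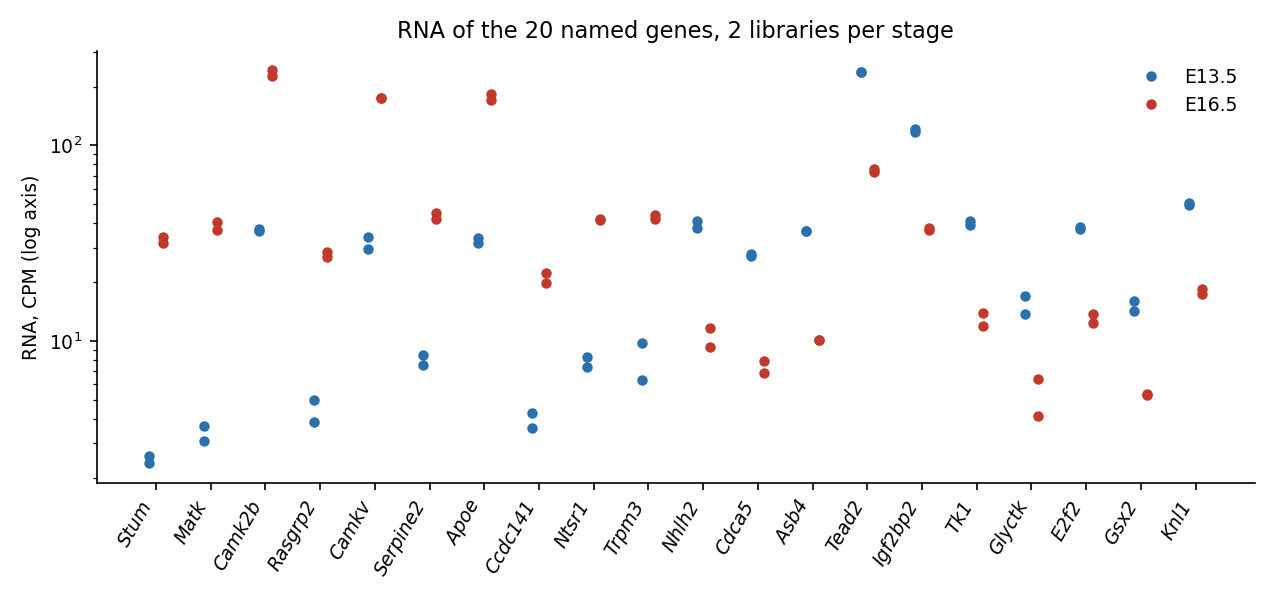
RNA level (CPM, log axis) of the 20 genes with the largest rises (left 10) and falls (right 10) among genes starting at narrow three-mark regions without an ATAC-seq peak. Each point is 1 of 2 libraries per stage, and the stages do not overlap in any of the 20.

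Of 21627 protein-coding genes, 1070 (4.95%) had a start at these regions, and the counts of 32 gene lists are given beside that share. None of 16 radial glia, 20 cell cycle, 10 deep-layer and 10 upper-layer neuron genes, 12 astrocyte, 6 choroid plexus, 13 microglia, 10 endothelial, 7 pericyte and 10 erythroid genes had one, where at that share a list of 20 genes would hold about 1. None of 1459 olfactory and vomeronasal receptor genes had one either. That list also had 0 genes at narrow regions with an ATAC-seq peak, and only 5 had enough counts to be tested. All 20 genes of the cell cycle list fell, though none of them starts at the regions without an ATAC-seq peak. The lists are selections: Knl1, E2f1, E2f2, Tk1 and Cdca5, named above, start here but are outside the cell cycle list. Ntsr1 is likewise outside the deep-layer list. Of 10 intermediate progenitor genes Mfap4 did, and it fell, as 9 of the 10 did. Of 24 synapse genes 3 did, Camk2b, Shank1 and Dlg4, and all 3 rose, Shank1 from 221 and 229 to 458 and 474 CPM, as did 20 of the 23 tested genes of the whole list. Of 118 potassium and calcium channel genes 12 did (10.2%), and of 11 tested 8 rose and 1 (Kcng1) fell, near the share in the whole list, where 62 of 87 rose and 5 fell. Kcnt1, a sodium-activated potassium channel gene, rose from 9.73 and 10.5 to 45.0 and 54.5 CPM. Kcnk1, a leak channel gene, rose from 1.32 and 2.43 to 8.27 and 8.72 and gained all 3 marks (changes 1.02, 0.71 and 1.18, limma adjusted p 0.0262, 0.0456 and 0.0335). Of 8 oligodendrocyte genes 2 had a start here: Sox10 rose from 0.781 and 0.607 to 4.8 and 4.03 CPM, and Olig2 fell from 42.2 and 49.4 to 30.8 and 28.5 with a loss of H3K9ac (change -1.29, limma adjusted p 0.021). Olig2 also had a start at a region of 5000 bp or more, and Shank1 at a narrow region with an ATAC-seq peak.

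Lists of general cell functions had between 2.22% (kinesins and dyneins) and 10.3% (nuclear oxidative phosphorylation) of their genes at these regions. The share of all protein-coding genes, 4.95%, lies within that range. Of 78 nuclear oxidative phosphorylation genes 8 had a start at these regions, and 5 fell and none rose, for example Ndufa12 from 53.9 and 57.0 to 40.2 and 36.8 CPM. Of 78 mitochondrial ribosome genes 6 did, and 3 fell. Of 48 proteasome genes 4 did, and 3 fell, Psmb5 from 55.1 and 55.0 to 31.8 and 36.4 CPM with a loss of H3K9cr (change -0.75, limma adjusted p 0.0205). Of 394 zinc finger genes named Zfp 19 did, and 7 fell and 1 rose. These directions were also those of the lists as wholes, in which 39, 56, 39 and 108 genes fell and 0, 1, 0 and 27 rose. Of 5 cytosolic ribosome genes 1 fell, of 3 splicing factor genes 2 fell and 1 rose, and of 3 ubiquitin enzyme genes 1 rose and 1 fell. In these whole lists 58, 55 and 37 fell and 5, 4 and 6 rose. None of 3 Rab and Vps genes and 1 kinesin gene passed the test, where 26 and 21 of the whole lists fell and 15 and 9 rose. Vars, an aminoacyl-tRNA synthetase gene, and Med13l, of the mediator complex, rose slightly (log2 changes 0.17 and 0.19). The Vars call held in 5 of 8 settings and that of Med13l in 7. In their whole lists 19 genes each fell, and 2 and 1 rose. The lists not named had at most 5 genes at these regions, apart from 35 transcript models without a gene name, of which 5 rose and 5 fell. Fancd2, a gene of DNA crosslink repair, fell from 26.5 and 27.7 to 10.2 and 11.7 CPM, and Elavl4, a neuronal RNA-binding protein gene, from 184 and 183 to 119 and 106. Elavl4 also had a start at a narrow region with an ATAC-seq peak and at a region of 5000 bp or more.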

How the data were processed

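Telencephalon of ICR mouse embryos was profiled in 22 samples, 2 libraries in each of 11 groups. The 4 input samples were not analysed here. For peaks the authors used Bowtie2 2.4.1, MACS2 2.2.7.1 and GRCm38, per the submitters' processing notes, and gave 1 list per library. A peak has, per the file headers, a signal value (pileup height at the summit), a -log10 q-value and a fold enrichment, which is a ratio over the caller's local background. The peaks of all lists reach down to a q-value of about 0.01. The sources used here give neither the depth of the lists nor the control or duplicate handling. The RNA table deposited by the authors holds expected counts per gene from Salmon 1.1.0, per the submitters' processing notes. They were rounded to whole numbers here.

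Members, gene lists and tests were chosen with earlier results of these data known. Each region took the highest fold enrichment of each library. Per mark, log2 fold enrichment was centred on each library's median over the regions with a peak in all 4 libraries, and E16.5 was compared with E13.5 in limma 3.58.1 with a mean-variance trend (2 libraries a stage). RNA was compared in edgeR 4.0.16 (quasi-likelihood, TMM, filterByExpr) under R 4.3.3. Adjustment was by Benjamini-Hochberg over all features fitted, with calls at 0.05. In simulated data with 200 changed regions per size, limma recovered 78 of 200 for H3K9ac at a log2 change of 1 and 199 at 2, and edgeR recovered 71 of 100 genes at 2-fold and 99 at 4-fold, so smaller changes are often missed. Gene positions and sequences came from RefSeq tables of GRCm38.p6. Of 16237 tested gene IDs, 14561 matched 1 RefSeq symbol. RNA levels per transcript length could not be computed without transcript lengths, so no levels are compared between genes.

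Named regions were the 5 strongest, the 5 largest calls per mark and direction, and those next to the width limit. Named genes were the 10 largest rises and falls with an adjusted p under 0.05, a mean of at least 10 CPM and no overlap of stages, and up to 2 per list and direction at 1 CPM or more. The text takes a selection. Genes outside these rules were picked after their values were seen. Positions are 1-based.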

Additional observations from a re-analysis of the deposited data

How the results depend on the processing

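With only ATAC-seq peaks found in both lists, 7061 regions were chosen, and leaving out 1 histone or ATAC-seq library gave 3873 to 5486. The share at a gene start was 23.3% with a window of 500 bp, 32.2% with 5000 bp, 37.1% with all annotated genes and 19.7% with genes of known strand, an alternative added after seeing the data, and 23.0% to 27.5% with 1 histone library left out. The lower mark strength held under every alternative, between -1.39 and -1.22 with 1 library left out. The narrowing of the gap with stage was 0.02 away from gene starts (exact permutation p = 0.157), an alternative also added later.

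The counts of stage calls depended on the scaling, and the cause was not tested. Without centring, H3K9ac was higher in 934 and lower in 29 regions, H3K9cr in 485 and 58, and H3K18la higher in 70. Quantile normalization gave 79 lower for H3K9ac and 74 for H3K9cr. With pileup height the counts were 666 and 791, 855 and 559, and 414 and 283. Leaving out 1 library gave 0 to 54 higher and 0 to 146 lower for H3K9ac, 0 to 119 and 0 to 134 for H3K9cr, and 90 to 147 and 44 to 94 for H3K18la. With the replicate block H3K9ac was higher in 279, and H3K18la was higher in 236 and lower in 120. Differences between replicates 1 and 2 correlated between stages at -0.0144, 0.00775 and -0.0165 for the marks and 0.125 for RNA, so the numbers were not taken as pairs. The block gave 363 and 220 for H3K9cr and 383 and 248 for RNA. RNA counts under all alternatives were 272 to 423 risen and 174 to 248 fallen. The RNA level of these genes per length was not run.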
